A study of Homo sapiens with 10 samples.

Results

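The genes described here are 47 genes of the extracellular matrix and of the cell surface receptors that hold cells to it: matrix glycoproteins, collagens, laminins with their linker proteins, integrins, dystroglycan, syndecans and glypicans. They were taken from a list of symbols and matched by Ensembl ID to the 26346 genes in the files. Of the 47 genes, 29 reached a mean of 0.5 RPKM (reads per kilobase of transcript and M reads, where M is 10 to the power 6) over all libraries and could be tested among 13630 genes. PolyA RNA was sequenced from EndoC-βH1, an established human beta cell line that makes insulin. A total of 5 preparations received the SRp55 siRNA siSR#2 and 5 received a control siRNA, all grown on plates coated with matrigel and fibronectin. Every title also carries the word exposed and does not say to what, and the labels give no other treatment. The series describes the preparations as independent, and all of them come from this single line on a supplied coating.

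Beta cells in the islet lie against a basement membrane, a sheet in which laminin trimers and type IV collagen networks are joined by nidogens, perlecan and agrin. Integrins, which pair an alpha with a beta chain, and dystroglycan bind laminins from the cell side, while integrins with the alpha V chain also bind fibronectin. SRp55, encoded by SRSF6, is a serine/arginine-rich protein that binds short exonic sequences and promotes the use of nearby splice sites, and the alternative exons of fibronectin are textbook targets of this protein family.

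The exons in question are the extra domain A exon (EDA) and the extra domain B exon (EDB) of FN1, each coding for an additional fibronectin type III repeat. EDA holds a purine-rich splicing enhancer that SR proteins are known to bind, and that stretch is shown because the inclusion of the exon is measured below. The first bases of EDB are shown for comparison. Both are on the minus strand of GRCh38, at chr2:215380907-215380936 for EDA bases 145 to 174 and chr2:215393174-215393203 for EDB bases 1 to 30, and capitals mark the enhancer letters GAAGAAGA.
FN1 EDA: cacctgatggtGAAGAAGAcactgcagagc
FN1 EDB: aggtgccccaactcactgacctaagctttg
Searched on the transcript strand, GAAGAAGA was found 1 time in the 270 bases of EDA and 0 times in the 273 bases of EDB. It was present in 1.94% of 206 internal exons with the length of EDA and in 3.29% of 152 with the length of EDB. A match describes letters and no measured binding.

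The siRNA target was lowered in every library: SRSF6 was at 24.9 ± 3.78 RPKM after SRp55 siRNA and 98.2 ± 3.24 RPKM after control siRNA (SD, n = 5 each; log2 fold change -2.08, SE 0.11, limma adjusted p = 2.0e-05). Reads assigned to transcripts ranged from 94.7 to 189.8 M in SRp55 siRNA libraries and from 61.9 to 159.2 M in control siRNA libraries. All 10 beta cell markers on a list of INS, PDX1, MAFA and others passed the filter, with INS at 7930 to 11334 RPKM after SRp55 siRNA and 4237 to 12705 RPKM after control siRNA. They did not move together: SLC30A8, the zinc transporter of insulin granules, was the 1 marker called (log2 fold change 1.04, limma adjusted p = 0.0025), while PDX1 was at 72.4 to 87.9 RPKM after SRp55 siRNA and 89.1 to 110.4 RPKM after control siRNA, without overlap or a call. IAPP and NKX6-1 were lower in every pair and not called. The part of these differences in the results below was not tested. Of 8 mesenchymal and 5 matched endothelial markers none passed the filter. PECAM1, also on the endothelial list, was not matched and has no level here. Their summed levels were 0.307 to 0.762 RPKM after SRp55 siRNA and 0.317 to 1.78 RPKM after control siRNA for the mesenchymal list, with POSTN listed at 0 everywhere. The endothelial sums were 0.022 to 0.049 RPKM after SRp55 siRNA and 0.0078 to 0.049 RPKM after control siRNA, with KDR and CDH5 at 0. Of 5 immune, 5 duct and 5 acinar markers, 2, 3 and 1 passed the filter and none was called. Each of these lists held an expressed gene. CD68 was at 24.9 to 48.9 RPKM after SRp55 siRNA and 33.5 to 49.4 RPKM after control siRNA. KRT19 was at 22.1 to 58.4 RPKM after SRp55 siRNA and 18.7 to 30.1 RPKM after control siRNA. For CPA1 the ranges were 15.7 to 39.0 RPKM and 15.8 to 27.2 RPKM in the same order. CD3E, PRSS1 and CELA3A were at 0. In bulk RNA, fewer cells of a kind and less RNA per cell cannot be told apart.

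Among the 29 tested matrix and receptor genes, 2 rose after SRp55 siRNA, MATN2 and FN1, none fell, and 27 did not pass the test. The background over all tested genes was 3.76% called higher and 1.25% called lower, 5.02% in all (limma on log2(RPKM + 0.5), Benjamini-Hochberg adjusted p under 0.05). The log2 fold changes, given relative to the median tested gene, had a median of -0.05 over the 29 genes and lay between -0.59 and 1.11, with 10 above 0 and 19 below, where the median over all tested genes is 0 by construction. The p-values belong to the change before this centring, in which the median tested gene moved by 0.11 (log2). At an unadjusted p under 0.05 there were 6 of the 29 genes, or 20.7%, beside 21.9% of all tested genes. The balance of calls depended on scaling. With median-of-ratios scaling 3.18% of all tested genes were called higher and 3.67% lower. In that fit 3 of the 29 genes were called higher and 1, ITGAV, lower. The calls also depended on pairing, which the main fit leaves out. With the replicate number as a block 4 of the 29 genes were called higher, MATN2, FN1, ITGA1 and SDC2, and none lower. In the block fit 13.1% of all tested genes were called. The library values of the groups did not overlap for 3 of the 29 genes, MATN2, FN1 and COL4A1, beside 7.92% of all tested genes.

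**Figure D1:**
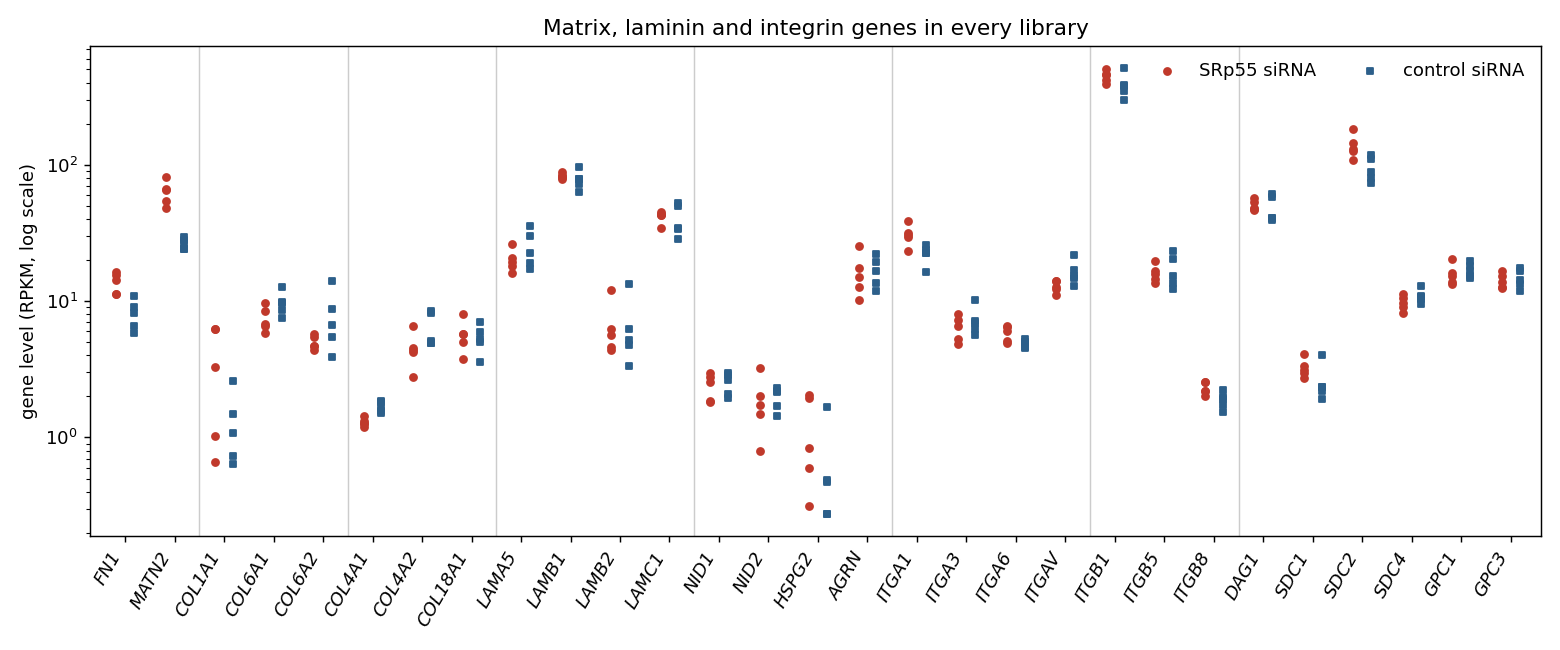
Gene level in RPKM on a log axis for the 29 tested genes, with a red circle for each SRp55 siRNA library and a blue square for each control siRNA library; grey lines separate matrix glycoproteins, collagens, basement membrane collagens, laminins, linkers, integrin alpha chains, integrin beta chains and other receptors. ITGB1 stands highest, at 297 RPKM or more in every library, and the circles of MATN2 and FN1 lie above all squares.

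MATN2 had the largest fitted log2 fold change of the 29 genes with all libraries in the fit. COL1A1, which did not pass the test, had a larger ratio of group means, 2.67 against 2.38, and a larger fitted value without SRp55 siRNA replicate 2, 1.14 against 1.08. Its long coding form COL1A1-201 did not have a higher mean after SRp55 siRNA, as given below. MATN2 encodes matrilin-2, a secreted adaptor with EGF-like repeats and von Willebrand factor A domains that joins filamentous networks in the matrix. MATN2 (ENSG00000132561.9, chromosome 8, 98881068 to 99048944, plus strand, GRCh37) was at 65.5, 66.3, 81.2, 48.4 and 53.8 RPKM in SRp55 siRNA replicates 1 to 5, against 26.7, 24.2, 28.2, 24.0 and 29.5 RPKM in control siRNA replicates 1 to 5. The lowest SRp55 siRNA library was above the highest control library by a wide margin. The means were 63.0 ± 12.7 RPKM after SRp55 siRNA and 26.5 ± 2.43 RPKM after control siRNA (SD, n = 5 each), a 2.16-fold rise relative to the median tested gene (log2 fold change 1.11, SE 0.14, limma adjusted p = 0.0024). The adjusted p stayed between 0.0037 and 0.0108 when each library was left out in turn. Estimated reads, which weigh transcripts by reads and not per length, gave 181 ± 22.1 per M assigned after SRp55 siRNA and 91.4 ± 10.7 after control siRNA (SD, n = 5 each; log2 fold change 0.99, limma adjusted p = 0.00012).

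**Figure D2:**
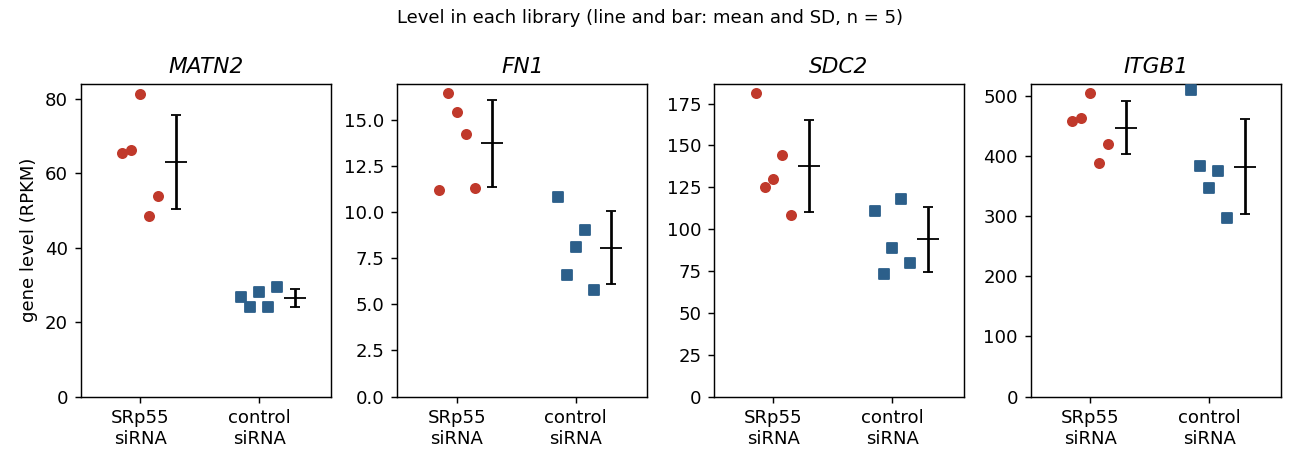
Gene level in RPKM of MATN2, FN1, SDC2 and ITGB1 in each library (red circles, SRp55 siRNA; blue squares, control siRNA), with mean and SD (n = 5) beside the points and axes from 0. MATN2 averages 63.0 RPKM after SRp55 siRNA and 26.5 RPKM after control siRNA with a clear gap, FN1 has a narrow gap, and the groups overlap for SDC2 and ITGB1.

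The 3' end of MATN2 overlaps RPL30, a ribosomal protein gene on the other strand, and the use of strand in counting is not given in the sources used here. RPL30 itself was at 430 ± 58.5 RPKM after SRp55 siRNA and 355 ± 129 RPKM after control siRNA (SD, n = 5 each; log2 fold change 0.23, limma adjusted p = 0.41). A total of 3 short MATN2 transcripts, MATN2-206, MATN2-214 and MATN2-217, lie wholly inside RPL30 and together held 13.5 RPKM after SRp55 siRNA and 2.99 RPKM after control siRNA. Without these 3 transcripts MATN2 was still called, with a log2 fold change of 0.95 (limma adjusted p = 0.0025).

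The MATN2 transcripts did not all rise alike. MATN2-218, annotated as coding, was at 9.85, 2.74, 5.31, 7.08 and 13.3 RPKM in SRp55 siRNA replicates 1 to 5, against 0.634, 0.364, 0.406, 1.10 and 0.295 RPKM in control siRNA replicates 1 to 5, so the groups did not overlap. How many of all transcripts did not overlap is not given here. The share of MATN2-218 in the gene's RPKM was 13.0% ± 8.13 after SRp55 siRNA and 2.18% ± 1.43 after control siRNA (SD, n = 5 each), with overlapping ranges of 4.14% to 24.7% after SRp55 siRNA and 1.00% to 4.59% after control siRNA. MATN2-208, which has the coding length of MATN2-201, was listed at 0 in every control library and in 1 SRp55 siRNA library, and averaged 4.13 ± 2.50 RPKM after SRp55 siRNA (n = 5).

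The most abundant forms took a smaller share although their levels were not lower. MATN2-211 made up 18.5% ± 4.01 of MATN2 after SRp55 siRNA and 32.6% ± 12.0 after control siRNA, and MATN2-213, a shorter coding form, 21.5% ± 8.11 after SRp55 siRNA and 35.4% ± 9.16 after control siRNA (SD, n = 5 each). Their levels were 11.5 and 13.9 RPKM after SRp55 siRNA, against 8.44 and 9.42 RPKM after control siRNA. The share of MATN2-201 was 7.69% ± 1.56 after SRp55 siRNA and 10.5% ± 5.66 after control siRNA, and that of MATN2-206, inside RPL30, was 15.1% ± 3.57 after SRp55 siRNA and 3.82% ± 5.84 after control siRNA (SD, n = 5 each). The group values of each of these 4 forms overlapped.

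Across transcripts, MATN2 was the only gene of 24 tested matrix and receptor genes called for usage, beside 0.343% of 9915 genes (limma diffSplice, adjusted p = 0.0060, largest shift 14.1 percentage points). The call depends on the test. When each transcript's share was tested singly with its own spread, MATN2 had an unadjusted p of 0.016 and a limma adjusted p of 0.94, and 0.0403% of all genes were called. For MATN2-211, the transcript with the largest shift, the exact two-sided permutation test gave p = 0.0476, and p = 0.125 with libraries paired by number. Since the transcript was picked for its shift and the test does not repeat that choice, these p-values are too small. It passed the threshold in 1 of 10 omissions of a library, that of control siRNA replicate 5, with shifts between -19.0 and -11.0 percentage points. On simulated transcripts with unequal spreads diffSplice made more calls among unshifted genes than its adjusted p allows and more than the test of single shares.

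**Figure D3:**
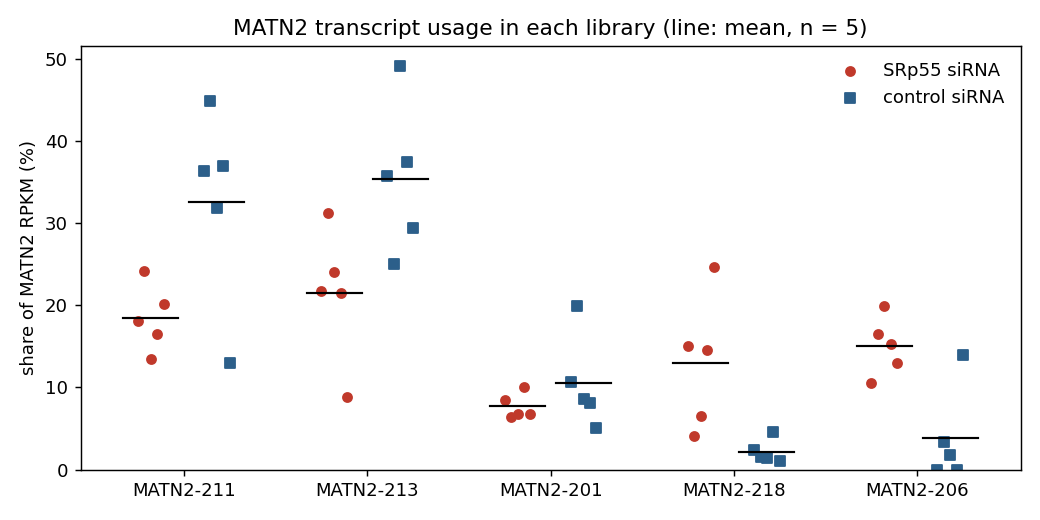
Share of MATN2 RPKM in percent for the 5 transcripts that entered the usage test, with a red circle for each SRp55 siRNA library, a blue square for each control siRNA library and a line at the group mean. MATN2-218 averages 13.0% after SRp55 siRNA and 2.18% after control siRNA, while MATN2-211 averages 18.5% after SRp55 siRNA and 32.6% after control siRNA, with overlapping points.

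MATN2-218 differs from the coding sequence of MATN2-201 by the skipping of exon 7, which lies at 97994480 to 97994602 of chromosome 8 in GRCh38. This exon has 123 bases, or 41 codons, and is among 10 exons of that length in the 19 exons of MATN2-201, each the size of an EGF-like repeat, so that skipping keeps the reading frame. Inclusion is the percent of RPKM held by forms with the exon, among spanning transcripts matched by ID and length. MATN2-201 holds the exon but did not match in length, so it is left out, which lowers the values. It averaged 4.76 RPKM after SRp55 siRNA and 2.71 RPKM after control siRNA. Inclusion was 80.2%, 93.6%, 89.0%, 79.6% and 66.5% in SRp55 siRNA replicates 1 to 5, against 96.9%, 98.0%, 98.4%, 94.8% and 98.3% in control siRNA replicates 1 to 5. Every SRp55 siRNA library was below every control library, with means of 81.8% ± 10.4 after SRp55 siRNA and 97.3% ± 1.52 after control siRNA (SD, n = 5 each). The exon was picked after its values were seen, so this is a description with no test. Of 8 spanning transcripts 7 hold the exon and only MATN2-218 lacks it, so inclusion restates the level of MATN2-218 and is no separate observation. The share of exons without overlap over all genes is not given here. The transcripts spanning it held 4617 to 22122 estimated reads per library, and inclusion comes from the authors' transcript estimates, not from junction reads.

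FN1, fibronectin, is the soluble and cell-assembled glycoprotein that binds integrins and collagens, and it rose to a smaller extent than MATN2. FN1 (ENSG00000115414.14, chromosome 2, 216225163 to 216300895, minus strand, GRCh37) was at 11.2, 16.4, 15.4, 14.2 and 11.3 RPKM in SRp55 siRNA replicates 1 to 5, against 10.8, 6.60, 8.13, 9.02 and 5.79 RPKM in control siRNA replicates 1 to 5. The groups did not overlap, but the nearest libraries were only 11.2 RPKM after SRp55 siRNA and 10.8 RPKM after control siRNA. The means were 13.7 ± 2.37 RPKM after SRp55 siRNA and 8.08 ± 2.00 RPKM after control siRNA (SD, n = 5 each), a log2 fold change of 0.64 (SE 0.18, limma adjusted p = 0.037). The call was lost without SRp55 siRNA replicate 2, 3 or 4 or control siRNA replicate 2, 3 or 5, with adjusted p of 0.031 to 0.091 over all 10 omissions, and with no filter on low values, where it was 0.053. On estimated reads FN1 was clearer, at 73.4 ± 6.14 per M assigned after SRp55 siRNA and 47.4 ± 9.53 after control siRNA (SD, n = 5 each; log2 fold change 0.66, limma adjusted p = 0.0033).

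The makeup of FN1 transcripts did not pass the test (limma diffSplice adjusted p = 1.00 over 7 transcripts, largest shift 4.80 percentage points). EDA inclusion was 47.2%, 26.2%, 42.7%, 70.6% and 46.4% in SRp55 siRNA replicates 1 to 5, against 10.1%, 67.3%, 55.4%, 68.2% and 66.2% in control siRNA replicates 1 to 5. A single control library lay far below the other 4, and the groups overlapped. The means were 46.6% ± 15.9 after SRp55 siRNA and 53.4% ± 24.8 after control siRNA (SD, n = 5 each; exact two-sided permutation p = 0.595). Without control siRNA replicate 1 the difference was -17.7 percentage points (exact p = 0.0714). That library was picked for its low value and the test does not repeat that choice, so this p-value is too small.

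Over transcripts matched by ID and length, EDB inclusion varied widely in both groups. It was 56.4%, 7.41%, 55.7%, 79.1% and 65.6% in SRp55 siRNA replicates 1 to 5, against 6.99%, 22.4%, 52.2%, 65.2% and 69.7% in control siRNA replicates 1 to 5. The means were 52.8% ± 27.1 after SRp55 siRNA and 43.3% ± 27.4 after control siRNA (SD, n = 5 each; exact two-sided permutation p = 0.611). With spreads of this size, no difference in either exon was detectable, which does not show that inclusion was equal. The coding form FN1-203 did not match in length and is left out for both exons. It was at 1.17 RPKM in SRp55 siRNA replicate 2 and 0.539 RPKM in control siRNA replicate 1, the lowest EDB libraries. How far this moves the inclusion values was not tested. Matched transcripts held 86.4% to 94.0% of FN1 RPKM. FN1-207 shows how estimates among the long FN1 forms jump between libraries: it held 19.2% of FN1 in SRp55 siRNA replicate 2 and 43.3% in control siRNA replicate 1 and was listed at 0 in the other 8 libraries.

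**Figure D4:**
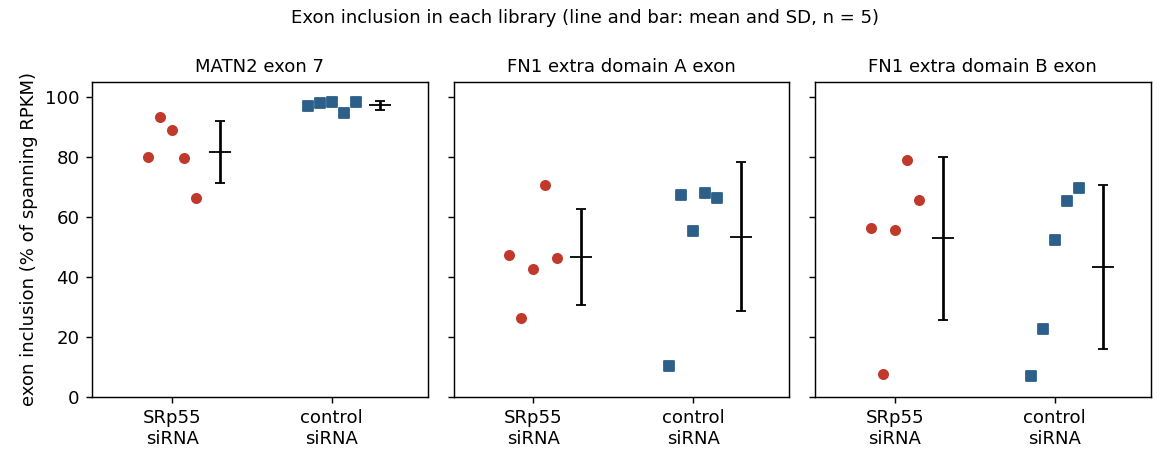
Inclusion in percent of spanning RPKM, over transcripts matched by ID and length, for MATN2 exon 7, the extra domain A exon and the extra domain B exon of FN1 in each library (red circles, SRp55 siRNA; blue squares, control siRNA), with mean and SD (n = 5). For MATN2 exon 7 all circles lie below all squares, at 66.5% to 93.6% after SRp55 siRNA and 94.8% to 98.4% after control siRNA, while the groups overlap for both FN1 exons.

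The other 5 glycoproteins on the list were below the filter: MATN3, a relative of MATN2 in cartilage, SPARC, a collagen-binding protein, the thrombospondin THBS1, tenascin TNC and the proteoglycan versican VCAN. Their highest library value was 0.412 RPKM, for VCAN. The mean of MATN3 was 0.033 RPKM.

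Of 7 fibrillar and other collagens, 3 were tested and none passed. COL1A1, the main chain of type I collagen, scattered widely, at 3.49 ± 2.70 RPKM after SRp55 siRNA and 1.31 ± 0.792 RPKM after control siRNA (SD, n = 5 each; log2 fold change 0.79, SE 0.51, limma adjusted p = 0.34). On estimated reads its log2 fold change was 0.19. COL1A1-202, a retained-intron form of 614 bases, was at 5.32 and 5.34 RPKM in SRp55 siRNA replicates 3 and 4. It was at 2.26 RPKM in control siRNA replicate 5 and at 0 elsewhere. The coding form COL1A1-201, of 6727 bases, was at 0.428 ± 0.195 RPKM after SRp55 siRNA and 0.513 ± 0.209 RPKM after control siRNA (SD, n = 5 each). The chains of type VI collagen, which forms beaded filaments around cells, were at 7.46 ± 1.58 RPKM after SRp55 siRNA and 9.65 ± 1.91 RPKM after control siRNA for COL6A1 (log2 fold change -0.46) and at 4.97 ± 0.593 RPKM after SRp55 siRNA and 7.74 ± 3.91 RPKM after control siRNA for COL6A2 (-0.59; SD, n = 5 each). COL1A2, COL2A1, COL5A1 and COL9A3 were below the filter.

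The basement membrane collagens had low levels, and 3 of 5 were tested with none called. COL4A1, a chain of the type IV network, was at 1.25, 1.19, 1.28, 1.32 and 1.43 RPKM in SRp55 siRNA replicates 1 to 5, against 1.52, 1.83, 1.56, 1.86 and 1.64 RPKM in control siRNA replicates 1 to 5. Its groups did not overlap, and the fit gave a log2 fold change of -0.39 relative to the median tested gene (SE 0.10). The limma adjusted p of 0.116 belongs to the change before this centring. With median-of-ratios scaling the limma adjusted p was 0.074. COL4A2, its partner chain, was lower after SRp55 siRNA in 5 of 5 equally numbered pairs, at 4.50 ± 1.35 RPKM after SRp55 siRNA and 6.33 ± 1.84 RPKM after control siRNA (SD, n = 5 each; log2 fold change -0.56, limma adjusted p = 0.263). COL4A2 overlaps COL4A1 on the other strand, so reads in the shared stretch may belong to either gene. Mean estimated reads per library were 4380 for COL4A2 and 1303 for COL4A1. COL18A1, the precursor of endostatin, had a log2 fold change of -0.04. COL4A5 and COL4A6 reached at most 0.088 RPKM in any library.

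Of 7 laminin chains, 4 were tested and none was called: the alpha chain LAMA5, the beta chains LAMB1 and LAMB2 and the gamma chain LAMC1. LAMB1 was at 82.5 ± 3.57 RPKM after SRp55 siRNA and 77.4 ± 11.8 RPKM after control siRNA, and LAMC1 at 41.6 ± 4.12 RPKM after SRp55 siRNA and 39.7 ± 10.6 RPKM after control siRNA (SD, n = 5 each). LAMB1, the highest of the laminins, was at 78.3, 80.6, 84.3, 81.8 and 87.6 RPKM in SRp55 siRNA replicates 1 to 5, against 77.9, 63.4, 72.0, 95.6 and 78.1 RPKM in control siRNA replicates 1 to 5, and its groups overlapped. Its log2 fold change had an SE of 0.12 and a limma adjusted p of 0.649. LAMA5 was at 20.0 ± 3.73 RPKM after SRp55 siRNA and 24.8 ± 7.64 RPKM after control siRNA (SD, n = 5 each; log2 fold change -0.38, limma adjusted p = 0.476). The coding form LAMA5-201 was at 3.52 ± 1.12 RPKM after SRp55 siRNA and 5.24 ± 1.09 RPKM after control siRNA. LAMB2 was at 6.57 ± 3.13 RPKM after SRp55 siRNA and 6.58 ± 3.96 RPKM after control siRNA (SD, n = 5 each). Short retained-intron forms weighed on this sum. LAMB2-205 was at 10.3 RPKM in SRp55 siRNA replicate 5 and LAMB2-209 at 5.83 RPKM in control siRNA replicate 4. The coding form LAMB2-201 was at 0.938 ± 0.434 RPKM after SRp55 siRNA and 1.16 ± 0.551 RPKM after control siRNA. The alpha chains LAMA1, LAMA3 and LAMA4 were below the filter, LAMA1 narrowly so with a mean of 0.498 RPKM. LAMB1 overlaps DLD and LAMA5 overlaps ADRM1 on the other strand, so reads in the shared stretch may belong to either gene.

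All 4 linkers of laminin to its partners were tested and none was called. Agrin, AGRN, binds laminins to dystroglycan and was at 16.2 ± 5.78 RPKM after SRp55 siRNA and 16.7 ± 4.14 RPKM after control siRNA (SD, n = 5 each). Its sum varied with AGRN-203, a retained-intron form of 459 bases, at 0.0997 to 12.9 RPKM after SRp55 siRNA and 0.491 to 9.66 RPKM after control siRNA. The coding form AGRN-201 was at 6.76 ± 0.865 RPKM after SRp55 siRNA and 8.41 ± 1.58 RPKM after control siRNA. The nidogens, which bridge laminin and type IV collagen, had log2 fold changes of -0.17 for NID1 and -0.24 for NID2. The NID2 sum came mostly from the retained-intron forms NID2-206 and NID2-204, with mean shares of 45.5% and 27.8% over all libraries. Perlecan, HSPG2, was at 0.838, 2.04, 1.93, 0.312 and 0.600 RPKM in SRp55 siRNA replicates 1 to 5, against 0.473, 0.275, 0.276, 1.66 and 0.484 RPKM in control siRNA replicates 1 to 5, with groups that overlapped. HSPG2-204, of 828 bases with no defined coding sequence, was at 0.978 and 1.00 RPKM in SRp55 siRNA replicates 2 and 3 and 0.981 RPKM in control siRNA replicate 4. The coding form HSPG2-203 was at 0.373 ± 0.139 RPKM after SRp55 siRNA and 0.266 ± 0.0517 RPKM after control siRNA (SD, n = 5 each).

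ITGB1, the beta chain shared by the laminin and collagen receptors, was the highest of the 47 genes. It was at 458, 463, 504, 389 and 420 RPKM in SRp55 siRNA replicates 1 to 5, against 510, 383, 347, 375 and 297 RPKM in control siRNA replicates 1 to 5. The groups overlapped through control replicate 1, the highest of all 10 libraries. The means were 447 ± 44.0 RPKM after SRp55 siRNA and 382 ± 78.8 RPKM after control siRNA (SD, n = 5 each; log2 fold change 0.13, SE 0.15, limma adjusted p = 0.38).

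Integrin alpha chains were far less abundant than ITGB1, and none of the 4 tested was called. ITGA1, which with ITGB1 forms a collagen and laminin receptor, was at 30.7 ± 5.43 RPKM after SRp55 siRNA and 22.1 ± 3.51 RPKM after control siRNA and was higher in 5 of 5 pairs (SD, n = 5 each; log2 fold change 0.35, limma adjusted p = 0.114). With the replicate number as a block it passed the test (adjusted p = 0.032, beside 9.39% of all genes called higher in that fit). Much of the ITGA1 sum came from ITGA1-206, a form of 601 bases with no defined coding sequence. ITGA1-206 was at 16.3 ± 4.67 RPKM after SRp55 siRNA and 9.26 ± 3.55 RPKM after control siRNA. The coding form ITGA1-201 was at 8.33 ± 1.27 RPKM after SRp55 siRNA and 6.87 ± 0.867 RPKM after control siRNA (SD, n = 5 each). PELO lies within ITGA1 on the same strand, and was at 21.5 ± 1.95 RPKM after SRp55 siRNA and 16.2 ± 3.27 RPKM after control siRNA (SD, n = 5 each). ITGAV, the alpha chain of fibronectin and vitronectin receptors, was at 12.8 ± 1.23 RPKM after SRp55 siRNA and 16.4 ± 3.37 RPKM after control siRNA and was lower in 5 of 5 pairs (SD, n = 5 each; log2 fold change -0.44, limma adjusted p = 0.193). With median-of-ratios scaling ITGAV passed the test (adjusted p = 0.037, beside 3.67% of all genes called lower).

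ITGA3 and ITGA6 are chains of laminin receptors. ITGA3 was at 6.41 ± 1.33 RPKM after SRp55 siRNA and 7.21 ± 1.74 RPKM after control siRNA, and ITGA6 at 5.83 ± 0.774 RPKM after SRp55 siRNA and 4.86 ± 0.318 RPKM after control siRNA (SD, n = 5 each). Neither passed the test. ITGA2 reached at most 0.445 RPKM. ITGA5, the alpha chain of the main fibronectin receptor, was listed at 0 in every library. Among the beta chains, ITGB5, a partner of ITGAV, was at 16.0 ± 2.38 RPKM after SRp55 siRNA and 16.9 ± 4.70 RPKM after control siRNA, and ITGB8, another partner of ITGAV, at 2.30 ± 0.241 RPKM after SRp55 siRNA and 1.88 ± 0.265 RPKM after control siRNA (SD, n = 5 each). ITGB4, the partner of ITGA6 in hemidesmosomes, was below the filter.

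SDC2, syndecan-2, a transmembrane heparan sulfate proteoglycan, was next to ITGB1 in level. It was at 181, 125, 130, 144 and 108 RPKM in SRp55 siRNA replicates 1 to 5, against 111, 73.1, 88.9, 118 and 79.5 RPKM in control siRNA replicates 1 to 5. It was higher in 5 of 5 pairs while the groups overlapped. Its log2 fold change of 0.44 (SE 0.17) had a limma adjusted p of 0.098. SDC2 did pass in the block fit (limma adjusted p = 0.019), after median-of-ratios scaling (0.039, beside 3.18% of all genes called higher), on estimated reads (0.0080) and without control siRNA replicate 4 (0.048). On estimated reads it was at 228 ± 15.5 per M assigned after SRp55 siRNA and 176 ± 18.1 after control siRNA (SD, n = 5 each), with no overlap.

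The remaining receptors showed little. DAG1, dystroglycan, was at 50.4 ± 4.46 RPKM after SRp55 siRNA and 47.9 ± 10.6 RPKM after control siRNA (SD, n = 5 each; log2 fold change -0.01). SDC1, SDC4, GPC1 and GPC3, syndecans and membrane-anchored glypicans, had log2 fold changes of 0.20, -0.27, -0.21 and -0.15, and none passed the test. GPC4 was below the filter.

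**Figure D5:**
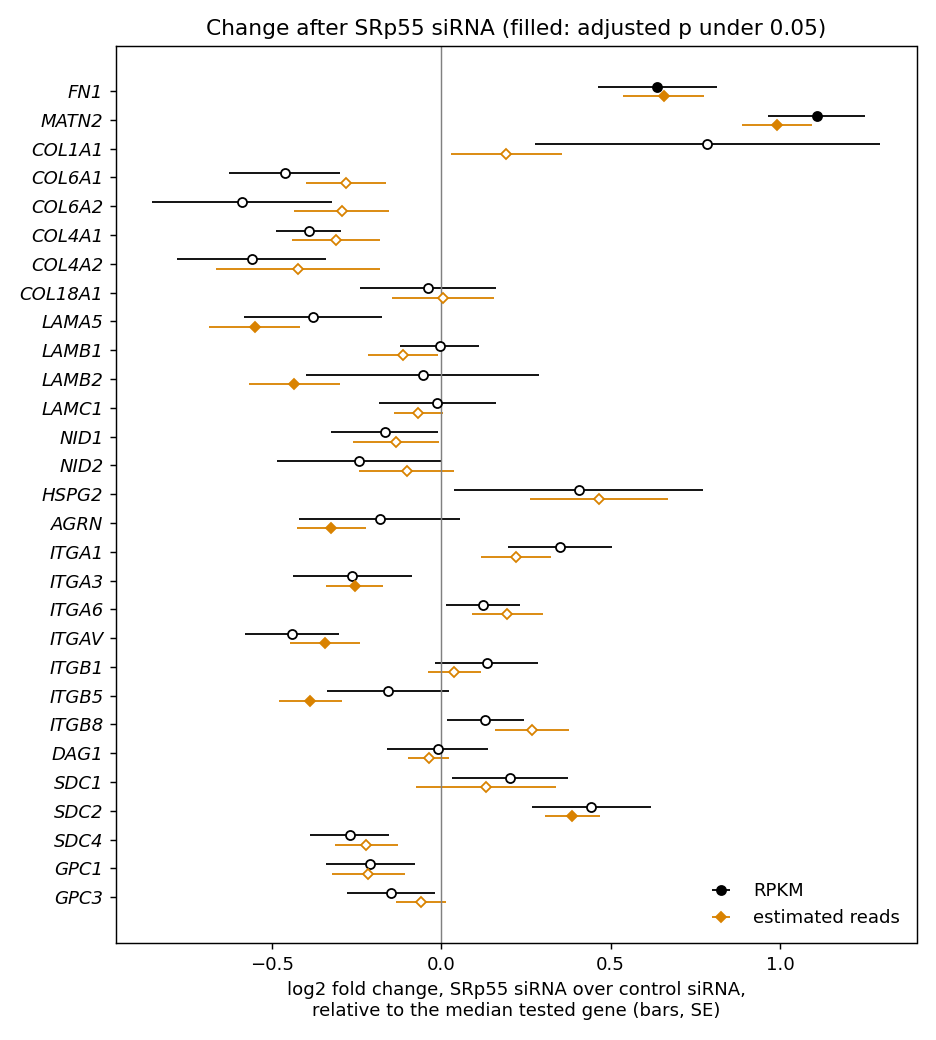
Log2 fold change of the 29 tested genes, SRp55 siRNA over control siRNA relative to the median tested gene, with SE bars; black circles are RPKM sums and orange diamonds estimated reads per M assigned, filled where the adjusted p is under 0.05. On RPKM only MATN2 (1.11) and FN1 (0.64) are filled, and on estimated reads SDC2 is also filled to the right and 6 genes to the left of 0.

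Estimated reads changed the picture for the lower side of the list. On that quantity 6 of the 29 genes were called lower, LAMA5, LAMB2, AGRN, ITGA3, ITGAV and ITGB5, and 3 higher, MATN2, FN1 and SDC2, beside 9.87% of all genes called lower and 7.3% called higher. LAMA5 was at 70.7 ± 12.2 reads per M assigned after SRp55 siRNA and 105 ± 16.4 after control siRNA (SD, n = 5 each; log2 fold change -0.55, limma adjusted p = 0.013). ITGB5 was at 34.8 ± 4.44 reads per M assigned after SRp55 siRNA and 45.9 ± 3.21 after control siRNA (SD, n = 5 each; log2 fold change -0.39, limma adjusted p = 0.012). Each of the 6 was lower in 5 of 5 pairs on reads. So were COL6A1, COL6A2, COL4A1, COL4A2, LAMB1 and GPC1, which were not called, and the share over all genes is not given here. Of the 6 called genes, 5 had no call on RPKM under any other setting tried, the exception being ITGAV. RPKM sums weigh a short transcript more than a long one with the same reads, and what part transcript length plays in the gap was not tested.

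Genes around the members were read from 8 lists with 166 genes, of which 97 were tested, 6 rose and 1 fell, beside 3.76% of all tested genes called higher and 1.25% called lower. ADAMTS5, a protease that cleaves proteoglycans, was at 1.17 ± 0.169 RPKM after SRp55 siRNA and 0.415 ± 0.106 RPKM after control siRNA (SD, n = 5 each; log2 fold change 0.76, limma adjusted p = 0.0041), and it kept its call without each library in turn. TIMP3, a matrix-bound inhibitor of metalloproteases, was at 6.94 ± 1.13 RPKM after SRp55 siRNA and 4.68 ± 0.206 RPKM after control siRNA (SD, n = 5 each; adjusted p = 0.031). These were the 2 called genes of 15 tested proteases and inhibitors. COL5A2, a fibril-regulating collagen chain, was the 1 called gene of 5 other collagens tested, at 1.67 ± 0.122 RPKM after SRp55 siRNA and 1.02 ± 0.132 RPKM after control siRNA (SD, n = 5 each; adjusted p = 0.018). TIMP3 lost its call without SRp55 siRNA replicate 2 or 3 or control siRNA replicate 1, 2, 3 or 5, with an adjusted p of up to 0.076, and with median-of-ratios scaling (0.056). COL5A2 lost its call without control siRNA replicate 2 or 5, with up to 0.053.

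Inside the cell, 3 of 26 tested adaptors of integrin adhesion changed, beside 5.02% of all tested genes, and each of the 3 calls was lost in most omissions of a library. TNS1, a tensin that links integrins to actin, was at 3.49 ± 1.19 RPKM after SRp55 siRNA and 1.67 ± 0.402 RPKM after control siRNA (SD, n = 5 each; log2 fold change 0.74, limma adjusted p = 0.037). RSU1, a partner of the complex of integrin-linked kinase, PINCH and parvin, was at 6.45 ± 2.14 RPKM after SRp55 siRNA and 3.23 ± 0.797 RPKM after control siRNA (SD, n = 5 each; 0.77, adjusted p = 0.046). PARVB, beta-parvin of that complex, fell to 18.8 ± 6.90 RPKM after SRp55 siRNA, against 35.8 ± 8.82 RPKM after control siRNA (SD, n = 5 each; -1.05, adjusted p = 0.044), with 1 SRp55 siRNA library inside the control range. TNS1 kept its call without SRp55 siRNA replicate 1 or 3 or control siRNA replicate 4, RSU1 without SRp55 siRNA replicate 5 or control siRNA replicate 4, and PARVB without SRp55 siRNA replicate 1. In the other omissions the adjusted p rose to at most 0.091 for TNS1, 0.106 for RSU1 and 0.107 for PARVB. With no filter on low values all 3 lost their calls (adjusted p of 0.052, 0.069 and 0.067 in the same order), and TNS1 also did on estimated reads (log2 fold change 0.46, adjusted p = 0.059). Of 21 tested genes of the dystroglycan complex and its glycosylation, LARGE2, a glycosyltransferase that builds the laminin-binding glycan, was called, at 60.7 ± 10.6 RPKM after SRp55 siRNA and 35.7 ± 6.41 RPKM after control siRNA (SD, n = 5 each; 0.65, adjusted p = 0.021). It was lost without SRp55 siRNA replicate 2 or control siRNA replicate 1, 2, 3 or 5, with an adjusted p of up to 0.061. The lists of other laminins, other integrins, other syndecans and glypicans, and collagen biosynthesis, with 3, 3, 3 and 21 tested genes, held no called gene.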

How the data were processed

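PolyA RNA from EndoC-βH1 cells was sequenced on an Illumina HiSeq instrument per the labels, with 5 libraries after SRp55 siRNA and 5 after control siRNA, grouped and numbered by their titles. TopHat was the aligner and GRCh37 (hg19) the build, per the submitters' processing notes. How reads were counted per transcript, with which annotation and whether by strand, is not given in the sources used here. The deposited files list 155130 transcripts, each with an RPKM value and an estimated read count made by the authors and held together in a text field, which is why the unit was recorded as other, edgeR was not run and estimated reads per M assigned served as an alternative. In the files the deposited RPKM equals reads over length and a library total larger than the assigned reads, which were 87.0% ± 7.24 of it after SRp55 siRNA and 82.1% ± 6.82 after control siRNA (SD, n = 5 each). Values hold the precision of the assigned reads, 61.9 M to 189.8 M per library, and cover no error of the authors' assignment to transcripts.

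Gene levels are sums of transcript RPKM. Symbols came from GENCODE 44 by Ensembl ID and covered 95.0% of genes; PECAM1 was not matched. The level test was limma (version 3.58.1, in R 4.3.3), run on log2(RPKM + 0.5) of the deposited RPKM for every gene averaging 0.5 RPKM or more. It had the trend and robust settings and no block, and p-values were adjusted by Benjamini-Hochberg over 13630 genes, with 0.05 as threshold. The scale understates folds of low genes. The median tested gene moved by 0.11 (log2), against 0.01 with median-of-ratios scaling, so log2 fold changes and their intervals are relative to it, while the p-values belong to the change before this centring. Transcript usage was tested with diffSplice on transcripts with at least 0.5 RPKM and 5% usage and called at a shift of at least 10 percentage points. The test of single shares used limma on log2 of a transcript over the others of its gene, combined per gene by the Simes method, and was chosen after seeing the data. Exon inclusion used exon structures of GENCODE 44 (GRCh38) for transcripts with equal ID and length. These were 26 of 30 transcripts for FN1, holding 86.4% to 94.0% of FN1 RPKM. For MATN2 they were 17 of 18, holding 80.0% to 94.9% of MATN2 RPKM. Sequences are from GENCODE 44 transcripts. Scripts were tested on simulated data. p-values measure the spread between preparations.

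The members, lists and tests were chosen with earlier results of these data known. Named in full were members called for level or usage, FN1, MATN2 and the 3 highest members, and the called genes of each list, at most 4; COL4A1, HSPG2 and MATN2 exon 7 were added after their values were seen. Equal replicate numbers were checked as pairs: deviations from group means correlated at 0.13 to 0.41 for equal numbers and at most 0.12 for different numbers over 5 pairs, so the block is a paired fit.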

Additional observations from a re-analysis of the deposited data

Results flagged for a closer look

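Of 100 groups of 5 libraries checked, 14 held a library far from the others by Dixon's criterion, and chance alone flags about 1 in 20 groups. Among gene levels, LAMB2 had a high SRp55 siRNA library at 12.0 RPKM and a high control siRNA library at 13.4 RPKM. LAMC1 had a low SRp55 siRNA library at 34.3 RPKM, and COL5A2 a low SRp55 siRNA library at 1.46 RPKM. PARVB had a high SRp55 siRNA library at 30.8 RPKM, the library that lay inside its control range. High control siRNA libraries were seen for HSPG2 at 1.66 RPKM, SDC1 at 4.00 RPKM and LARGE2 at 47.0 RPKM, the last still below every SRp55 siRNA library.

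Among transcript measures, FN1 EDA inclusion had a low control siRNA library at 10.1%. FN1-207 usage stood at 19.2% in 1 SRp55 siRNA library and at 43.3% in 1 control siRNA library, and at 0 elsewhere. FN1-221 usage, of a form annotated with a retained intron, reached 14.0% in 1 SRp55 siRNA library, and FN1-225 usage, also of a retained-intron form, 27.7% in 1 control siRNA library. MATN2-206 usage, of a form inside RPL30, reached 14.0% in 1 control siRNA library, inside the SRp55 siRNA range.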

How the results depend on the processing

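Both rises and the low number of calls were recomputed with other pseudocounts, without the filter, with median-of-ratios scaling, on estimated reads, with the replicate block and without each library. MATN2 kept its direction and call for level in every one of these. Over all genes, 684 calls became 2340 on estimated reads and 1784 with the replicate block, and 259 to 1083 without single libraries. Genes called higher among the members, 2 as reported, were 1 with no filter, 4 with the replicate block (FN1, ITGA1, MATN2 and SDC2) and 1 to 3 without single libraries. Genes called lower, 0 as reported with limma, where 6 genes had an unadjusted p under 0.05 in either direction, were 1 with median-of-ratios scaling and 6 on estimated reads. The 7 calls on the lists became 24 on estimated reads, 13 with the block and 1 to 9 without single libraries. The usage call of MATN2 held in every alternative listed above that applies to it and became 0 calls when shares were tested singly. MATN2-211 usage, -14.1 percentage points, was -13.4 on estimated reads (exact p = 0.063) and -14.1 with the block as a paired exact permutation (p = 0.125, smallest possible 0.0625), and -19.0 to -11.0 without single libraries. FN1-207 usage, -4.80, ranged from -8.65 to 3.85 and reversed to 3.85 without control siRNA replicate 1. EDA differences ranged from -17.7 to -1.70 and EDB from 0.451 to 20.9. Near-zero log2 fold changes changed sign. Without the filter they were 0.0372 for COL18A1, 0.0706 for LAMB1, 0.0203 for LAMB2, 0.0637 for LAMC1 and 0.0644 for DAG1. COL18A1 was 0.0068 on estimated reads and LAMB1 0.00214 with pseudocount 1. Without single libraries they ranged from -0.144 to 0.0832 (COL18A1), -0.0693 to 0.0543 (LAMB1), -0.326 to 0.179 (LAMB2), -0.085 to 0.0545 (LAMC1) and -0.0564 to 0.0375 (DAG1). The block changed no other call among the members. The cause was not tested for any of these changes.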
